A study of Mus musculus with 4 samples.

Results

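The cells described here are those to which the deposited annotation gives the cell type name Mesonephric tubules, taken from all 4 samples of a single-cell RNA-seq study of mouse gonads with the attached mesonephros. The name was held by 3513 of 52745 cells, and it combines 3 finer deposited names, Mesonephric tubules 1 with 846 cells, Mesonephric tubules 2 with 1032 cells and Mesonephric tubules 3 with 1635 cells. The study examined the loss of the miR-17~92 cluster, a group of microRNAs cut from a single primary transcript, around sex determination. Each sample was 1 pool of 3 to 4 pairs of gonads and mesonephroi. The XY control sample held E11.5 embryos (E, embryonic day) made from G4 mouse embryonic stem cells, a C57BL/6J and 129 F1 hybrid line. The XY KO samples, called KO E11.5 and KO E11.75 below by their stage, held embryos made from G4 cells carrying a homozygous CRISPR/Cas deletion of miR-17~92 in the whole embryo. All 3 XY samples were obtained by tetraploid aggregation, in which the embryo proper derives from the stem cells, so embryos of 1 sample are isogenic. The XX control sample held E11.5 embryos that came instead from matings of C57BL/6J males with 129 females, so sex and the way the embryos were made cannot be told apart in that sample. The labels give the strain of all 4 samples as C57BL/6 x 129S4/SvJae. The stages of the KO samples follow the labels. The deposited table holds 17057 cells of KO E11.5, from 2 runs, and 8492 of KO E11.75, from 1 run, whereas the methods of the study give these cell numbers to the opposite stages. The methods also state a separate cut-off on mitochondrial and beta globin content for each stage. The highest contents were 9.995% and 0.388% in KO E11.5 and 8.992% and 0.724% in KO E11.75, each just under the cut-off of the labelled stage. KO E11.75 had no control of its own stage, so stage and deletion cannot be told apart in it, and all 3 comparisons below used the same XY control.

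The mesonephros is the transient embryonic kidney that lies beside the gonad. Its nephric (Wolffian) duct grows caudally under signals received through the receptor tyrosine kinase Ret, and the duct induces the neighbouring mesenchyme to condense and to form tubules through signals that include Wnt9b. Pax2, Pax8 and Lhx1 are transcription factors required for this lineage, Epcam is an epithelial cell adhesion molecule and Cdh16 is the kidney-specific cadherin. Further caudally, Six2-positive and Eya1-positive mesenchyme gives rise to the nephrons of the permanent kidney. In XY embryos the nephric duct and part of the tubules later form the epididymis, the vas deferens and the efferent ducts.

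The 6 mature microRNAs of the deleted cluster are shown because their seeds define the target sites examined at the end of the results. They fall into 4 seed families, miR-17 with 2 members, miR-19 with 2 members, and miR-18 and miR-92 with 1 member each. Sequences are from RefSeq on GRCm38.p6, where all 6 lie on the plus strand of chromosome 14, and the seed (bases 2 to 8) is in capitals.
mmu-miR-17-5p: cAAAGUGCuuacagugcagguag
mmu-miR-20a-5p: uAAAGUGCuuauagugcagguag
mmu-miR-18a-5p: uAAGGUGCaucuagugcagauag
mmu-miR-19a-3p: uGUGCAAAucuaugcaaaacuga
mmu-miR-19b-3p: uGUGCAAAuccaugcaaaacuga
mmu-miR-92a-3p: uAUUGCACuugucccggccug

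Depth differed between samples. The tubule cells held 9057381 UMIs (unique molecular identifiers, each marking 1 captured transcript molecule) in XY control, 6006208 in KO E11.5, 3382676 in KO E11.75 and 7793049 in XX control. The median tubule cell held 4273, 5140.0, 5327 and 17196 UMIs in the same order, and 67 of the 357 XX tubule cells had at least 30000 UMIs, a depth at which the authors cut off XY cells but not XX cells. UMIs were summed over the cells of a sample and expressed as CPM, counts scaled to a sum of 1000000 per sample. Each group was 1 sample, so no test between groups could be made and no p-value is given. Every interval below is a 95% interval that covers counting error only, not the variation between embryos or pools. A gene was counted as past 2-fold when its log2 ratio to XY control was at least 1 or at most -1 and both samples together held at least 100 UMIs. A member of a gene list that would have stayed under 100 UMIs at the lower of its 2 levels reached this minimum only through the sample in which it was high. Such members had to differ to be counted, so they are named beside the counts, and counts and medians of lists are a description. Genes named by the size of their ratio could reach the minimum in the same way, and their levels are a description too. Between the 2 technical runs of XY control, 5 of 9580 genes measured in tubule cells were past 2-fold higher (0.0522%) and 4 were lower (0.0418%). Of 52400 distinct barcodes, 345 occurred in more than 1 run, and 59 tubule cells had a barcode that another run also held. The sex-linked transcripts of tubule cells fitted the labels, and Xist, the transcript of the inactive X, stood at 887 CPM in XX control and at no more than 0.499 CPM in the XY samples.

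The 5 markers that define the type were higher in tubule cells than in most other cell types of the same dissections. Cdh16 stood at 236, 153, 293 and 125 CPM in tubule cells of XY control, KO E11.5, KO E11.75 and XX control, the order of samples kept in all lists of 4 values below, and at no more than 7.33 CPM in any of the 12 other deposited types. Pax2 stood at 159, 139, 264 and 105 CPM. Both genes were thus far above other cells in every sample, although outside the tubule cells Pax2 reached 87.5 CPM in the adrenal gland cells of KO E11.75. Lhx1, at 69.6, 62.3, 93.7 and 42.9 CPM, was nearly as high in primordial germ cells (57.9, 45.0, 80.9 and 34.3 CPM). Epcam, at 668, 597, 579 and 529.8 CPM, was shared with the same cells (252 to 398 CPM). Pax8, at 78.9, 79.9, 94.0 and 56.3 CPM, was higher in supporting-like cells of every sample (139, 88.9, 163 and 129.9 CPM). It was also higher in supporting cells of XX control (83.0 CPM). The genes that stood furthest above all other cells, ranked by the lowest of the 4 samples, were led by Pkhd1, which encodes the ciliary protein fibrocystin, the transcription factors Sim1, Hnf4a and Pou3f3, and Kcnj16, a potassium channel of tubular epithelia. Pkhd1 was at 42.0, 21.5, 62.1 and 28.5 CPM, with log2 ratios over all other cells of 7.10 to 8.37. These genes helped to define the type and are given as a description.

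The markers did not apply to all 3 finer names. To compare cells of unequal depth, each cell with at least 3000 UMIs was thinned to 3000, which left out 465 shallower tubule cells. Epcam was then detected in 94.4% of Mesonephric tubules 1 cells (95% exact binomial interval 92.4 to 95.9), in 65.8% of Mesonephric tubules 3 cells (63.3 to 68.2) and in 6.48% of Mesonephric tubules 2 cells (4.96 to 8.30). The last value was nearer to the 4.14% and 3.24% found in the deposited types Mesonephros and Endothelial, which should lack the gene. The type Mesonephros is taken here as mesenchyme, a word its label does not give. Without thinning these shares were 95.5%, 73.8%, 11.3%, 6.27% and 6.32% in the same order of cells. Cdh16 gave 63.1%, 34.4% and 0.223% in Mesonephric tubules 1, 3 and 2, and Lhx1 gave 25.6%, 18.9% and 0.670%. In Mesonephric tubules 2 both were therefore no more frequent than in mesonephros mesenchyme (0.879% and 1.57%). Among the markers given here Pax2 was the exception, with 43.2%, 32.3% and 34.2%, against 1.95% in the mesenchyme. The share for Pax8 by finer name is not given here. Mesonephric tubules 2 cells thus carried Pax2 without the epithelial markers of the type. Their leading genes were Eya1, Six2, Hoxd11, Meox1, Fgf20 and Hoxa11, and Six2 was detected in 32.5% of them, against 0.138% of Mesonephric tubules 1 and 0.281% of Mesonephric tubules 3 cells. They are called by their deposited name below and given no other.

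**Figure D1:**
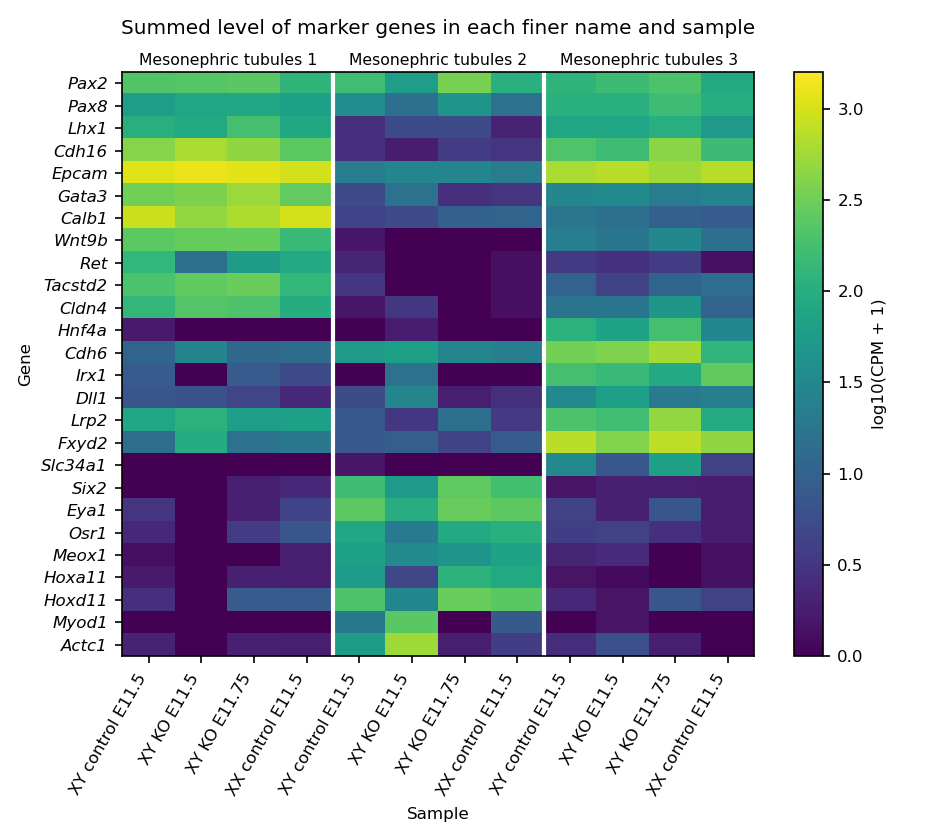
Heat map of the summed level of the 5 tubule markers and of other genes of duct, tubule, progenitor and muscle (vertical axis) in each finer name and sample (horizontal axis), with the colour giving log10(CPM + 1). Epcam, Cdh16 and Lhx1 are high in Mesonephric tubules 1 and 3 and low in Mesonephric tubules 2, whereas Pax2 is present in all 3.

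Mesonephric tubules 1 and 3 differed in the genes of the duct and of the tubules. Mesonephric tubules 1 was led by Prmt8, Calb1 (the calcium-binding protein calbindin, found in the nephric duct), Rprm, Rasgrf2, Spink8, Aldh1a3 and Wnt9b. Genes leading Mesonephric tubules 3 included Cpb2, Keg1, Hnf4a (a transcription factor of proximal tubule cells), Hdc, Spink1 and the glucose transporter Slc2a2. When a thinned cell was assigned to the side of which it held more UMIs, with Gata3, Ret, Wnt9b, Wnt11 and Calb1 for the duct and Cdh6, Hnf4a, Dll1, Jag1 and Cubn for the tubule, 418 of 445 Mesonephric tubules 1 cells of XY control fell on the duct side and 4 on the tubule side. Of 623 Mesonephric tubules 3 cells of that sample, 57 fell on the duct side and 430 on the tubule side, and of 317 Mesonephric tubules 2 cells 256 held no UMI of either list. Genes outside these lists were ranked by the log2 ratio between the sides that lay nearest 0 over the samples. A gap in all 4 samples was thus built in, and the genes below are given as a description. Elf5, an epithelial transcription factor, was at 30.1, 31.2, 38.6 and 21.6 CPM in duct-side cells, with no more than 0.660 CPM on the tubule side. Hdc, the histidine decarboxylase gene, was at 122, 77.6, 284 and 27.1 CPM on the tubule side and at no more than 5.38 CPM on the duct side.

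The samples differed in how many tubule cells they held and in which of the finer names these fell. Tubule cells made up 7.31% of all cells in XY control (6.99 to 7.66), 5.39% in KO E11.5 (5.06 to 5.74), 6.06% in KO E11.75 (5.57 to 6.59) and 9.73% in XX control (8.79 to 10.7). The runs of a sample gave 7.48% and 7.15% in XY control and 5.13% and 5.62% in KO E11.5, runs being technical repeats of 1 pool that do not measure the spread between pools. Dissection sets how much mesonephros a pool holds, and its part in these shares was not tested. Within tubule cells, Mesonephric tubules 1 took 539 of 1721 cells in XY control (31.3%, 29.1 to 33.6), 44 of 920 in KO E11.5 (4.78%, 3.50 to 6.37), 172 of 515 in KO E11.75 (33.4%, 29.3 to 37.7) and 91 of 357 in XX control (25.5%, 21.0 to 30.3). KO E11.5 stood apart from the other 3 samples, and both of its runs did (5.47% and 4.25%). As a share of all cells the values were 2.29%, 0.258%, 2.03% and 2.48%. Mesonephric tubules 3 took 45.1%, 65.7%, 30.5% and 27.5% of tubule cells, and Mesonephric tubules 2 took 23.6%, 29.6%, 36.1% and 47.1%. The names were given on gene expression that includes the genes compared below, so these shares are a description.

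**Figure D2:**
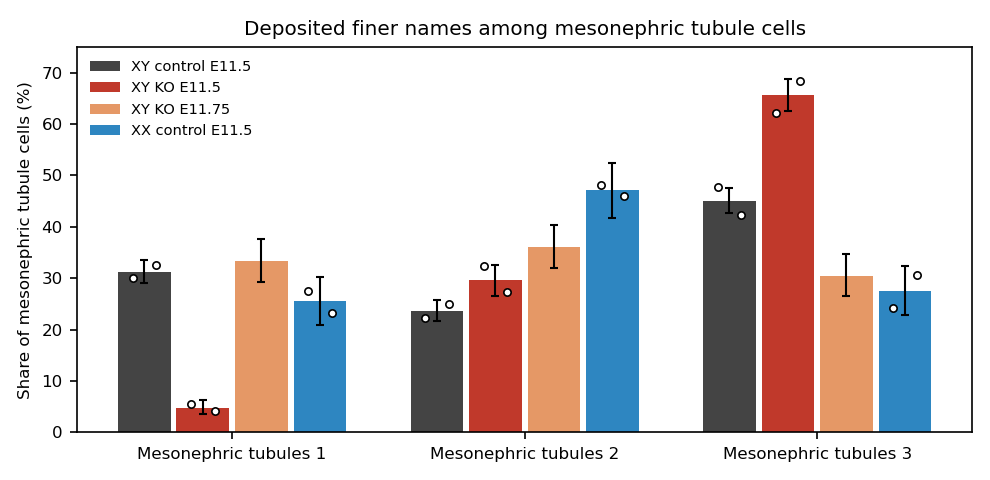
Share of tubule cells (percent, with 95% exact binomial intervals) that carry each of the 3 finer deposited names (horizontal axis), by sample, with open circles for the technical runs where a sample had 2. Mesonephric tubules 1 is 4.78% of tubule cells in KO E11.5 and between 25.5% and 33.4% in the other 3 samples.

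The rule on duct and tubule genes was applied to the same cells and holds genes that lead Mesonephric tubules 1, so it is not independent of the names. Duct-side cells were 49.9% of assigned cells in XY control (46.7 to 53.1, 484 of 970), 13.5% in KO E11.5 (10.8 to 16.7, 76 of 561), 51.8% in KO E11.75 (46.0 to 57.6, 157 of 303) and 58.0% in XX control (49.8 to 65.8, 91 of 157). With only Gata3, Ret and Wnt9b against Cdh6 and Hnf4a the shares were 52.9%, 15.5%, 54.5% and 65.2%.

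Sums over all tubule cells were taken over this unequal mix of finer names. In KO E11.5, 83 of 10705 genes measured were past 2-fold higher (0.775%) and 170 were lower (1.59%). Among the lowest were genes that lead Mesonephric tubules 1. Calb1 summed over all tubule cells stood at 294, 40.8, 216 and 301 CPM, a log2 ratio of -2.85 in KO E11.5, whereas within Mesonephric tubules 1 it stood at 885, 476, 641 and 971 CPM, a ratio of -0.89 (-1.12 to -0.68). With equal weights for the 3 finer names, 105 genes were lower in KO E11.5. In KO E11.75, 169 of 10467 genes were past 2-fold higher (1.61%) and 115 lower (1.10%), and in XX control, 39 of 10820 were higher (0.360%) and 300 lower (2.77%). The median gene itself stood at a log2 ratio of 0.15 in KO E11.75 and -0.17 in XX control, and scaling by TMM factors, which centre the bulk of genes, turned the balance to 99 higher and 179 lower in KO E11.75 and gave 76 higher and 176 lower in XX control. Unless all tubule cells are named, the comparisons below were therefore made within a finer name, and the median of all genes is given beside that of a list. A finer name can hold an unequal mix as well. In Mesonephric tubules 3, tubule-side cells were 430 of 623, 419 of 569, 121 of 139 and 54 of 95 thinned cells. That rule uses genes compared below, and the part of such a mix in the levels was not tested.

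Mir17hg, the host transcript of the deleted cluster (mm10 chr14:115042879-115046727, plus strand), stood at 22.3, 145, 202 and 22.3 CPM in tubule cells. Both deletion samples were thus well above both controls, and the log2 ratios were 2.70 (2.48 to 2.93) in KO E11.5 and 3.18 (2.95 to 3.41) in KO E11.75. The 3′ libraries count reads near the end of the transcript and the microRNA precursors lie within it, so these counts do not check the deletion. The transcript was also higher in both deletion samples in each of the 12 other deposited types, for example at 28.2, 220.1, 210.4 and 25.4 CPM in epithelial mesonephros cells. H19, a maternally expressed imprinted non-coding RNA (chr7:142575529-142578143, minus strand), was instead low in the deletion samples, at 591, 7.66, 6.21 and 737 CPM in tubule cells. Both deletion samples were far below both controls in each finer name, with 877, 13.3, 14.4 and 1013 CPM in Mesonephric tubules 1 and 447, 4.87, 2.64 and 518 CPM in Mesonephric tubules 3. The gap was not particular to tubule cells, since H19 was low in the deletion samples in every deposited type (at most 44.8 CPM, against at least 52.9 CPM in each type of either control). Of 27 imprinted genes measured in Mesonephric tubules 3, H19 alone was past 2-fold in KO E11.5, and it reached the minimum only through XY control. Over all genes of that comparison 0.237% were higher and 0.829% lower. Deletion and stem cell line cannot be told apart, since the deletion embryos were made from an edited derivative of the control line.

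Mesonephric tubules 3 had 776, 604, 157 and 98 cells, and in XY control and KO E11.5 it held more UMIs than the other finer names (4391847 and 4312237). In KO E11.5, 22 of 9290 genes were past 2-fold higher (0.237%) and 77 were lower (0.829%), and the 2 runs of XY control differed in the same cells by 1 gene of 7127 in each direction (0.0140%). With TMM factors the KO E11.5 counts were 39 higher and 49 lower, and the median log2 ratio of all genes stood at 0.03 instead of -0.07. The genes highest in KO E11.5 were Mir17hg, the Notch effector Hes5, the lactate transporter Slc16a3, the growth factor Fgf8 and the hexokinase Hk2. The genes lowest were H19, the sodium-potassium-chloride cotransporter Slc12a1, the thyrotropin-releasing hormone gene Trh, the claudin Cldn10 and the phosphate cotransporter Slc34a1. In KO E11.75, 220 of 8117 genes were higher (2.71%) and 99 lower (1.22%), or 118 and 221 with TMM factors, and in XX control 19 of 8560 were higher (0.222%) and 261 lower (3.05%), or 39 and 156.

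**Figure D3:**
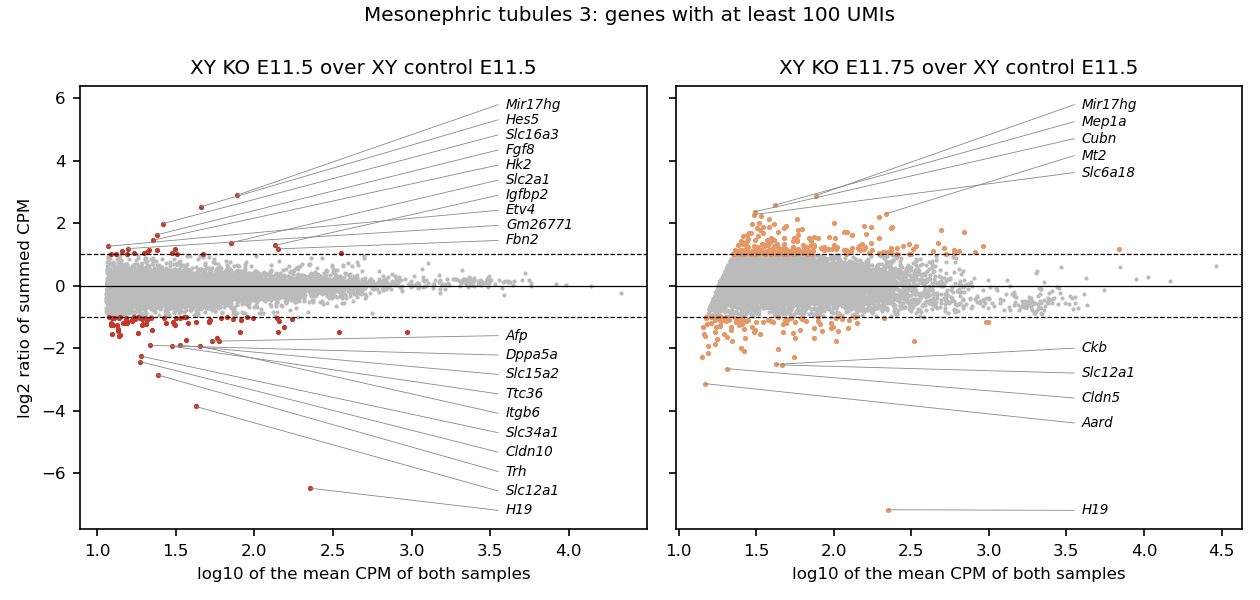
Log2 ratio of each gene in Mesonephric tubules 3 cells of KO E11.5 (left, 9290 genes) and KO E11.75 (right, 8117 genes) over XY control (vertical axis) against the log10 of its mean CPM (horizontal axis), with genes past 2-fold coloured and those named by size labelled. H19 lies furthest below 0 in both panels, and Mir17hg lies furthest above it.

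The Notch target Hes5 and the ligand Fgf8 stood higher in Mesonephric tubules 3 of KO E11.5, while most genes of their pathways were not past 2-fold. Hes5 (chr4:154960923-154962371, plus strand), a transcriptional repressor induced by Notch, was at 13.4, 78.1, 8.80 and 39.3 CPM. KO E11.5 was highest, XX control came next and the other 2 samples were low. The log2 ratio was 2.53 (2.14 to 2.96) in KO E11.5 and 1.54 (1.07 to 2.04) in XX control. The runs gave 94.6 and 64.5 CPM in KO E11.5 and 11.3 and 16.2 CPM in XY control. The Notch ligand Dll1 was at 31.6, 63.3, 20.2 and 22.8 CPM, with a log2 ratio just under the 2-fold limit (interval 0.70 to 1.31), and Lfng, which modifies Notch receptors, was at 15.9, 29.7, 22.0 and 14.2 CPM. The receptor Notch2 was level in the 4 samples, at 87.2, 92.3, 91.5 and 88.5 CPM, and the ligand Jag1 stood at 254, 301, 298 and 146 CPM. Of the 19 genes on the Notch list 14 were measured, and Hes5 was the only one past 2-fold in KO E11.5, with a list median of 0.21 against -0.07 over all genes. Fgf8, a ligand required for nephron formation, was at 11.6, 36.2, 4.40 and 22.0 CPM, a log2 ratio of 1.63 (1.17 to 2.13) in KO E11.5. The transcription factor Etv4, a target of Fgf and Ret signalling, was at 6.83, 16.5, 3.52 and 12.2 CPM, and the Ret co-receptor Gfra1 was at 13.2, 28.3, 28.2 and 13.8 CPM. Of 13 genes measured of the Ret and Fgf list these 3 were past 2-fold higher and none was lower, with a median of 0.18 against -0.07 over all genes. Etv4 reached the minimum only through KO E11.5. Over all genes of that comparison 0.237% were higher and 0.829% lower.

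Genes of tubular transport were ordered differently. Slc12a1, known from the thick ascending limb, was at 79.5, 5.33, 13.2 and 98.7 CPM in Mesonephric tubules 3, so both deletion samples were low and both controls high, with log2 ratios of -3.87 (-4.57 to -3.29) in KO E11.5 and -2.54 (-3.44 to -1.85) in KO E11.75. Its runs gave 2.56 and 7.64 CPM in KO E11.5 and 92.8 and 62.2 CPM in XY control. Genes of the proximal tubule did not follow that order. Lrp2, the endocytic receptor megalin, was at 201, 166, 481 and 92.4 CPM, its adaptor Dab2 at 164, 111, 397 and 49.6 CPM, and its partner receptor Cubn at 10.0, 3.25, 51.9 and 1.97 CPM. In all 3 genes KO E11.75 was highest and XX control lowest. Slc34a1, which takes up phosphate, was at 31.6, 6.49, 65.1 and 3.15 CPM, and in XX control its 8 UMIs were all in 1 of the 2 runs. Hnf4a had the same order, at 114, 71.0, 177 and 30.3 CPM. Of the 22 genes on the transport list 18 were measured in KO E11.5, of which Slc12a1 and Slc34a1 were past 2-fold lower and none higher, with a list median of -0.30 against -0.07 over all genes. Both reached the minimum only through XY control, and over all genes 0.829% were lower and 0.237% higher. In KO E11.75 7 of 17 were higher (Lrp2, Cubn, Dab2, Slc12a2, Slc34a1, Clcn5 and Slc16a1), where 2.71% of all genes were. Only Slc12a1 was lower, with a list median of 0.89 against 0.14 over all genes. Cubn and Slc16a1 reached the minimum only through KO E11.75, and Slc12a1 only through XY control. In XX control 7 of 15 were lower (Lrp2, Dab2, Amn, Slc34a1, Slc22a6, Clcn5 and Folr1) and none higher, where 3.05% of all genes were lower. The list median was -0.89 against -0.16, and Slc34a1 and Slc22a6 reached the minimum only through XY control. After the median of all genes was subtracted, 6 of these stayed past 2-fold in KO E11.75 and 5 in XX control.

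Several glycolytic and low-oxygen response genes were higher in Mesonephric tubules 3 of KO E11.5. The glucose transporter Slc2a1 was at 39.4, 103, 50.2 and 39.3 CPM, with a log2 ratio of 1.38 (1.13 to 1.65) in KO E11.5. The runs of KO E11.5 gave 107 and 99.7 CPM and those of XY control gave 39.5 and 39.2 CPM, so the runs of each sample lay close together. Hk2 was at 12.1, 33.4, 13.2 and 15.3 CPM, Slc16a3 at 10.5, 42.0, 7.04 and 6.29 CPM, and the lactate dehydrogenase gene Ldha at 231, 484, 235 and 235 CPM, a log2 ratio of 1.06 (0.95 to 1.17). In each of these genes KO E11.5 was above the other 3 samples, which lay near one another. Aldoa, an aldolase, and Pgk1, a phosphoglycerate kinase, were at 286, 445, 196 and 385 CPM and at 285, 453, 216 and 366 CPM and were not past 2-fold. Of the 28 genes on the list 23 were measured, 4 were past 2-fold higher (Slc2a1, Hk2, Ldha and Slc16a3) and none was lower, with a median of 0.66 against -0.07 over all genes. Slc16a3 reached the minimum only through KO E11.5. Over all genes of that comparison 0.237% were higher and 0.829% lower. The same list was not particular to tubule cells. Its KO E11.5 medians were 0.46 in the deposited type Mesonephros and 0.57 in Epithelial mesonephros, against -0.09 and -0.07 over all genes. The lists were drawn up with earlier results of these data known. In KO E11.75 the list had 1 of 19 genes higher, the phosphofructokinase Pfkp, with a median of -0.16 against 0.14 over all genes, and in XX control none of 20 was past 2-fold. Over all genes 2.71% were higher in KO E11.75. The time between dissection and fixation was not given in the sources used here, and its part in these levels was not tested.

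**Figure D4:**
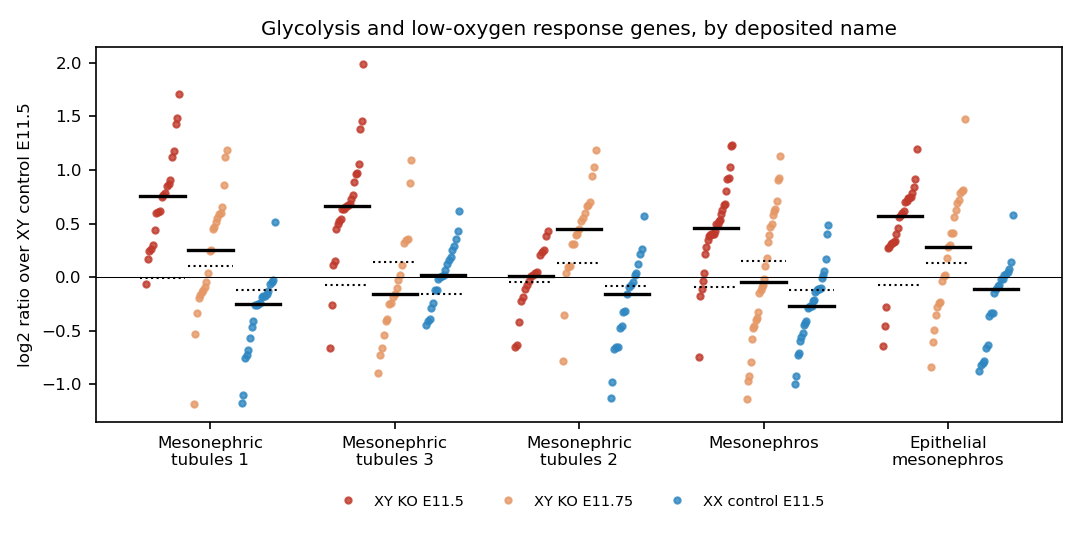
Log2 ratio to XY control of the genes on the glycolysis and low-oxygen response list (dots) in each finer name of tubule cells and in 2 other deposited types of the mesonephros, with the median of the list as a solid bar and the median of all genes measured as a dotted bar. The list median is 0.66 in Mesonephric tubules 3 and 0.76 in Mesonephric tubules 1 of KO E11.5, and 0.01 in Mesonephric tubules 2, and it is 0.46 in the deposited type Mesonephros and 0.57 in the deposited type Epithelial mesonephros.

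Some cell cycle genes of Mesonephric tubules 3 were past 2-fold lower in KO E11.75. Rrm2, a subunit of ribonucleotide reductase, was at 68.8, 107, 29.9 and 99.5 CPM, and Birc5, the survivin gene of dividing cells, was at 138, 167, 67.8 and 177 CPM. In that sample 4 of 24 S-phase genes and 3 of 29 genes of G2 and M phase were past 2-fold lower and none higher, with list medians of -0.44 and -0.40 against 0.14 over all genes. Fen1, Prim1 and Bub1 among them reached the minimum only through XY control. Over all genes 1.22% were lower in that sample, or 221 genes with TMM factors. In KO E11.5 no gene of either list was past 2-fold, with medians of 0.19 and 0.26 against -0.07, and in XX control none was, with medians of 0.11 and 0.21 against -0.16. The inhibitor Cdkn1a was at 78.6, 63.5, 246 and 51.1 CPM, a log2 ratio of 1.65 (1.42 to 1.88) in KO E11.75. Other genes highest in that sample by the same rule were the metallothionein Mt2 at 73.3, 72.4, 364 and 16.9 CPM and the amino acid transporter Slc6a18 at 10.5, 4.87, 51.0 and 2.36 CPM. Both were lowest in XX control, and Slc6a18 reached the minimum of 100 UMIs only through KO E11.75.

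In Mesonephric tubules 3, XX control was marked mainly by lower values. Mt1, a metallothionein, was at 218, 221, 762 and 25.2 CPM, with a log2 ratio of -3.10 (-3.50 to -2.75), and Keg1, a glycine acyltransferase family gene expressed in kidney, was at 47.8, 41.7, 139.9 and 7.47 CPM. The cadherin Cdh6, a marker of nascent tubules, was at 331, 376, 587 and 128 CPM. Trh was at 42.8, 5.80, 9.68 and 3.15 CPM, so XY control was the only sample with a high level. Tpm3-rs7, an intronless copy of a tropomyosin gene, was low in XX control in every finer name, with 56.5, 45.5, 50.2 and 3.54 CPM in Mesonephric tubules 3, and its counts could be split with those of its parent gene. The collagen and matrix list had 3 of 16 genes lower in XX control, with a median of -0.73 against -0.16 over all genes, and 3 higher in KO E11.75, with a median of 0.68 against 0.14. Over all genes 3.05% were lower in XX control and 2.71% higher in KO E11.75. In the same cells the 8 genes of the red blood cell list, mostly globins, summed to 2317, 901, 1109.7 and 562 CPM, highest in XY control, and the mesenchyme list summed to 321, 262, 528 and 207 CPM, highest in KO E11.75 as the collagen genes were. Their part in these differences was not tested. The germ cell and immune lists summed to no more than 61.7 and 19.8 CPM.

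Mesonephric tubules 1 held only 44 cells and 376298 UMIs in KO E11.5, so its intervals were wide. Of 6173 genes measured 66 were past 2-fold higher (1.07%) and 133 lower (2.15%). The duct marker Ret (chr6:118151745-118197718, minus strand) was at 132, 13.3, 55.8 and 88.4 CPM. KO E11.5 was lowest, with 5 UMIs in all, and KO E11.75 came next. The log2 ratios were -3.18 (-4.95 to -2.08) in KO E11.5, -1.24 (-1.66 to -0.86) in KO E11.75 and -0.58 (-0.83 to -0.34) in XX control. In the comparison of KO E11.5, Ret reached the minimum of 100 UMIs only through XY control. Calb1, whose levels are given above, and Rprm, at 642, 383, 529 and 639.5 CPM, were likewise lowest in KO E11.5 and next lowest in KO E11.75, with smaller gaps. Gata3, Wnt9b and Epcam did not share this order. Gata3, a transcription factor of the duct, was at 332, 372, 518 and 269 CPM, Wnt9b at 248, 276, 275 and 146 CPM and Epcam at 1119, 1292, 1174 and 947 CPM. These 3 genes were thus at or above the level of XY control in both deletion samples. Etv5 and Wnt11, which act downstream of Ret, had no UMI in KO E11.5, a floor of 3 UMIs being 7.97 CPM there, and stood at 21.6 and 8.92 CPM in XY control, at 55.8 and 40.5 CPM in KO E11.75 and at 14.4 and 7.61 CPM in XX control. Of 11 genes of the Ret and Fgf list measured in KO E11.5, Ret alone was past 2-fold. The highest genes of KO E11.5 included the immediate early genes Fosb (36.4, 170.1, 179 and 40.2 CPM) and Fos (61.0, 209.9, 151 and 74.9 CPM), which were also high in KO E11.75, and Hoxd9 (57.3, 221, 98.1 and 43.6 CPM).

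Several genes of the S-phase list were low in Mesonephric tubules 1 of KO E11.5. Of 26 genes 22 were measured, 12 were past 2-fold lower and none was higher, with a median of -1.01 against -0.01 over all genes. Of these 12 genes 11, Mcm5 among them, reached the minimum only through XY control. The count and the median are therefore read only as a description, and over all genes 2.15% were lower. Mcm5, a subunit of the replicative helicase, was at 56.2, 13.3, 51.3 and 52.0 CPM, and Top2a, the topoisomerase of dividing cells, was at 187, 37.2, 293 and 257 CPM. KO E11.5 was lowest for both. The log2 ratio of Top2a was -2.28 (-3.21 to -1.57), resting on 14 UMIs in KO E11.5. After thinning, Top2a was detected in 29.0% of cells in XY control, in 1 of 35 cells (2.86%) in KO E11.5, in 31.4% in KO E11.75 and in 25.3% in XX control. Mki67, a proliferation marker, was at 72.7, 45.2, 166 and 89.7 CPM and its interval in KO E11.5 included 0 (-1.49 to 0.03). Of 17 genes of G2 and M phase 4 were lower in KO E11.5 (Top2a, Ccna2, Cenpf and Nusap1), with a median of -0.67 against -0.01 over all genes, and Ccna2 and Nusap1 reached the minimum only through XY control. In KO E11.75 7 of 25 were higher, with a median of 0.53 against 0.10, and Anln among them reached the minimum only through KO E11.75. Over all genes 1.50% were higher in KO E11.75. The glycolysis list was high here as well, with 5 of 20 genes past 2-fold higher in KO E11.5 (Slc2a1, Aldoa, Ldha, Bnip3 and Ankrd37) and a median of 0.76 against -0.01 over all genes, and Ankrd37 reached the minimum only through KO E11.5. Over all genes 1.07% were higher in KO E11.5. Slc2a1 was at 96.0, 258, 144 and 57.9 CPM, and the mitophagy receptor Bnip3 at 36.7, 119.6, 52.2 and 35.1 CPM.

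In Mesonephric tubules 1 of KO E11.75, 106 of 7078 genes were past 2-fold higher (1.50%) and 53 lower (0.749%), or 61 and 88 with TMM factors. Smoc2, a matricellular protein, was at 19.5, 26.6, 154 and 12.3 CPM, and the Wnt inhibitor Notum at 9.26, 5.31, 66.6 and 13.1 CPM. KO E11.75 was highest for both, and also for Wnt7b (30.9, 34.5, 74.7 and 15.2 CPM) and Axin2, a target of Wnt signalling (86.1, 87.7, 184 and 67.3 CPM). These last 2 were the genes past 2-fold higher among 26 measured of the Wnt list, whose median was 0.50 against 0.10 over all genes. On the Ret and Fgf list Gfra1, Etv4 and Etv5 were past 2-fold higher and Ret lower among 13 genes, with a median of 0.53 against 0.10, and Etv4 and Etv5 reached the minimum only through KO E11.75. In XX control, 22 of 7735 genes were higher (0.284%) and 52 lower (0.672%), or 30 and 26 with TMM factors. The mesenchymal transcription factor Foxd1 was at 14.1, 13.3, 9.90 and 41.9 CPM and Mid1, a ubiquitin ligase gene, at 144, 125, 178 and 23.3 CPM. Foxd1 reached the minimum only through XX control. The red blood cell list summed to 2465, 771, 1324 and 10589 CPM in Mesonephric tubules 1, and 1 XX cell reached a beta globin content of 13.8% of UMIs.

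Mesonephric tubules 2 of KO E11.5 carried transcripts of skeletal muscle. Of 5307 genes 109 were past 2-fold higher (2.05%) and 103 lower (1.94%). Among the highest were skeletal muscle genes. Msc, a transcription factor of muscle precursors, was at 2.86, 125, 0.881 and 2.08 CPM, Myod1, the muscle determination factor, at 18.9, 237, 0 and 6.93 CPM, and Actc1, an actin of muscle, at 57.7, 547, 0.881 and 2.77 CPM. KO E11.5 was highest by a wide margin, XY control held a lower level and KO E11.75 was at or near 0. Myod1 had no UMI in KO E11.75, where a floor of 3 UMIs is 2.64 CPM. The log2 ratios in KO E11.5 were 5.32 (4.20 to 7.10) for Msc, 3.63 (3.13 to 4.21) for Myod1 and 3.24 (2.94 to 3.56) for Actc1. The runs of KO E11.5 gave 234 and 239.6 CPM of Myod1 and those of XY control gave 14.6 and 23.3 CPM. The 10 muscle genes summed below were listed because genes of this kind were high in this sample, and of the 9 measured there Myod1, Msc, Cdh15, Mymx and Neb reached the minimum only through it, so no count is read from the list. It summed to 274, 2255, 12.3 and 44.0 CPM in Mesonephric tubules 2, against 23.2, 27.4, 12.3 and 32.3 CPM in Mesonephric tubules 3.

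Among the genes low in Mesonephric tubules 2 of KO E11.5 were transcription factors of nephron progenitors and posterior Hox genes, some of which lead the name. Sall1, a transcription factor of nephron progenitors, was at 107, 6.07, 282 and 107 CPM, and Hoxd11, which patterns the caudal kidney field, was at 201, 28.1, 287 and 241 CPM. KO E11.5 was lowest and the other 3 samples were high. Six2 (chr17:85684277-85688274, minus strand), which maintains nephron progenitors, was at 158, 53.1, 255 and 170.4 CPM, Eya1, its coactivator, at 244, 96.4, 285 and 248 CPM, and Wt1 at 256, 111, 299 and 184 CPM. Hoxa11 was at 56.6, 3.79, 115 and 86.3 CPM, with a log2 ratio of -3.77 (-5.55 to -2.63) in KO E11.5. Six2 was detected in 32.8%, 13.8%, 52.9% and 37.8% of thinned cells. Of 7 nephric transcription factors measured 6 were past 2-fold lower (Pax2, Sall1, Six2, Eya1, Osr1 and Wt1) and 1 was past 2-fold higher, with a median of -1.44 against -0.05 over all genes. Over all genes 1.94% were lower and 2.05% higher. Sall1 and Osr1 reached the minimum only through XY control, and the gene that was higher only through KO E11.5. The 5 posterior Hox genes measured, on a list made after low values were seen, had log2 ratios of -3.77 to -1.76, and Hoxd10, Hoxa11 and Hoxd11 reached the minimum only through XY control. Gdnf, which encodes a ligand of Ret, was at 32.6, 4.55, 86.3 and 37.4 CPM, resting on 6 UMIs in KO E11.5.

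**Figure D5:**
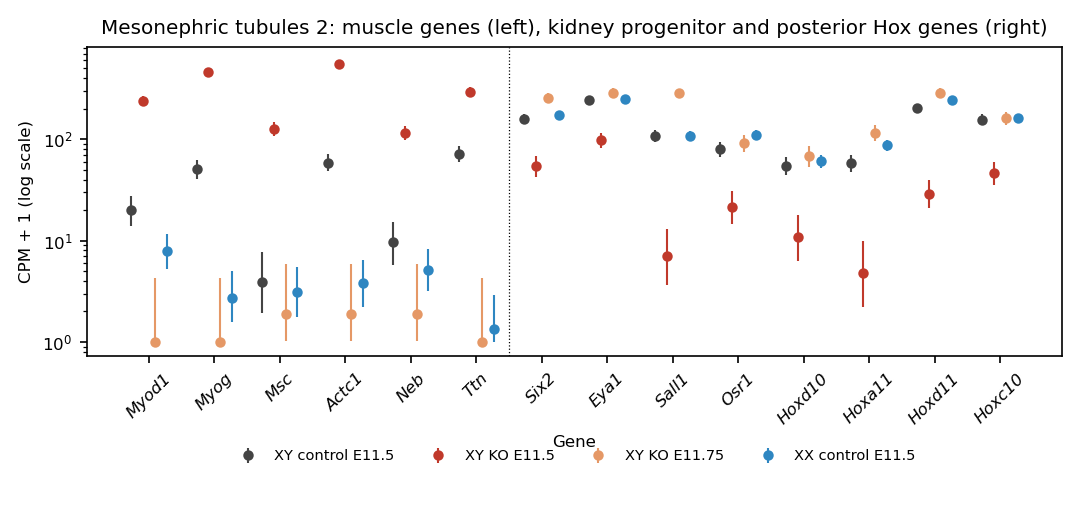
Levels (CPM + 1, log scale, with 95% exact Poisson intervals) of muscle genes and of nephron progenitor and posterior Hox genes in Mesonephric tubules 2 cells of the 4 samples. Muscle genes are highest and progenitor genes lowest in KO E11.5.

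Muscle transcripts of KO E11.5 occurred in cells with and without progenitor transcripts. Among thinned Mesonephric tubules 2 cells, 9 of 317 in XY control, 111 of 240 in KO E11.5, none of 174 in KO E11.75 and 5 of 164 in XX control held at least 2 UMIs of the muscle list. A UMI of Six2, Osr1, Gdnf or Hoxd11 was held by 202, 59, 149 and 125 cells, and both by 0, 24, 0 and 1 cells. In KO E11.5, 24 of the 59 cells with a progenitor UMI were thus among the muscle-bearing cells. The part of free RNA in droplets in this overlap was not tested. Without the cells that held at least 2 muscle UMIs before thinning, 148 cells of KO E11.5 remained, and Six2 was at 162, 22.2, 255 and 183 CPM. The log2 ratio of Six2 in KO E11.5 went from -1.57 (-1.98 to -1.19) with all cells to -2.82 (-3.76 to -2.10), that of Eya1 from -1.34 to -1.67 (-2.14 to -1.26) and that of Meox1 from -0.99 to -1.85 (-2.95 to -1.01). Of the UMIs of these genes in KO E11.5, 56 of 70, 78 of 127 and 32 of 43 were in the cells left out. For the genes counted as progenitor UMIs together with Six2, those cells held 3 of 27 UMIs of Osr1, 1 of 6 of Gdnf and 0 of 37 of Hoxd11. Some other ratios came nearer to 0, from -4.05 to -3.02 (-4.34 to -2.09) for Sall1, from -2.82 to -1.79 (-2.34 to -1.31) for Hoxd11 and from -1.92 to -1.05 (-1.77 to -0.44) for Osr1. Hoxc10 of KO E11.5 went from 45.5 to 79.2 CPM, and its ratio from -1.76 to the 2-fold limit (-1.48 to -0.57). Those of Pax2 and Wt1 went from -1.44 to -0.43 (-0.82 to -0.08) and from -1.21 to -0.38 (-0.68 to -0.10), no longer past 2-fold. The part of the muscle-bearing cells in the low levels was not tested beyond these values. How far caudally each pool was cut is not given in the sources used here, and its part in these levels was not tested.

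Mesonephric tubules 2 of KO E11.75 had 158 of 5251 genes past 2-fold higher (3.01%) and 77 lower (1.47%), or 96 and 109 with TMM factors. Among the highest after Mir17hg were the proto-oncogene Mycn, at 28.6, 25.0, 134 and 35.7 CPM, and the cadherin Cdh4, at 28.0, 20.5, 112 and 13.2 CPM. Both were high in KO E11.75 alone. On the list from G1 to S phase Ccnd1, Ccnd2, E2f1 and E2f3 were higher and the inhibitor Cdkn1c lower among 9 genes, with a median of 0.84 against 0.13 over all genes, and E2f1 reached the minimum only through KO E11.75. Cdkn1c, an imprinted gene, was at 1219.7, 2646, 477 and 1281 CPM, so the 2 deletion samples lay on opposite sides of the controls. Of 23 imprinted genes measured in KO E11.5 6 were higher (Igf2, Cdkn1c, Peg10, Nnat, Plagl1 and Slc38a4) and H19, which reached the minimum only through XY control, was lower. Over all genes 2.05% were higher and 1.94% lower in KO E11.5, and the list median was 0.19 against -0.05. In KO E11.5 124 of 272 cells held at least 2 muscle UMIs, and their part in these levels was not tested. In XX control 11 of 6604 genes were higher (0.167%) and 64 lower (0.969%), or 24 and 37 with TMM factors, and the progenitor genes Six2, Eya1 and Sall1 had log2 ratios of 0.11, 0.02 and 0.00.

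Genes with sites for the deleted microRNAs were compared with all other genes. An 8mer is a match to the seed followed by an A in the 3′ untranslated region, GCACTTTA for miR-17 and miR-20a, GCACCTTA for miR-18a, TTTGCACA for miR-19a and miR-19b, and GTGCAATA for miR-92a, and it was sought on the transcribed strand only, in the longest annotated region of each gene. None of the 4 holds another. Of 17302 genes with such a region 2133 held at least 1 of these 8mers. Among genes measured in all tubule cells, the median log2 ratio of genes with a site was -0.09 against -0.08 for the others in KO E11.5, 0.30 against 0.12 in KO E11.75 and -0.28 against -0.15 in XX control. Genes with a site thus lay higher than the others in KO E11.75, by 0.186, differed by -0.005 in KO E11.5, and lay lower in XX control, by a difference of -0.129. Between runs of XY control the difference was -0.013. In KO E11.75 each family gave a positive difference, 0.215 for miR-17, 0.197 for miR-18, 0.153 for miR-19 and 0.182 for miR-92. In KO E11.75 the difference went with the length of the region, being 0.214 among genes with short regions, 0.122 among those of middle length and 0.068 among those with long regions when genes were split by length into 3 equal groups. In the same groups it was 0.029, 0.046 and 0.026 in KO E11.5, so the sign there turned from that over all lengths, and -0.200, -0.038 and -0.058 in XX control, which has no deletion. Within Mesonephric tubules 1, 2 and 3 it was 0.214, 0.170 and 0.244 in KO E11.75, and 0.096, 0.007 and -0.038 in KO E11.5.

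Sites of 4 genes that were past 2-fold higher in at least 1 finer name of KO E11.75, chosen after their values were seen, are printed here to set the seed matches beside the microRNAs above. The 8mer is in capitals with 8 bases on each side, 5′ to 3′ on the strand of the gene, from mm10.
Mycn, miR-18 site: ttagtgctGCACCTTAgagcactt
Mycn, miR-19 site: actgccacTTTGCACAttttgatt
Mylip, miR-19 site: tttgtttcTTTGCACAgacatttt
Mylip, miR-92 site: ctcatcggGTGCAATActagctaa
Cdh4, miR-17 site: ctggcaggGCACTTTAccatggca
Zbtb4, miR-17 site: tgtttctgGCACTTTAgaaaaact
Zbtb4, miR-18 site: ccaaaataGCACCTTAtaccccat

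The 8mers of Mycn lie at chr12:12936148-12936155 and chr12:12936969-12936976 on the minus strand, those of Mylip at chr13:45411824-45411831 and chr13:45411710-45411717, that of Cdh4 at chr2:179897147-179897154 and those of Zbtb4 at chr11:69781271-69781278 and chr11:69780528-69780535, the last 5 on the plus strand and all 7 in the 3′ untranslated region. Mylip, an E3 ubiquitin ligase, was at 22.3, 30.4, 87.2 and 15.9 CPM in Mesonephric tubules 2, where the log2 ratio in KO E11.75 was 1.96 (1.42 to 2.54). Zbtb4, a zinc finger repressor, was at 23.2, 15.8, 50.2 and 11.4 CPM in Mesonephric tubules 3, with log2 ratios of 1.12 (0.62 to 1.59) in KO E11.75 and -0.56 (-1.02 to -0.10) in KO E11.5. Ccnd2, cyclin D2, which also holds a miR-19 8mer, was at 254, 276, 541 and 212 CPM in all tubule cells, with a log2 ratio of 1.09 in KO E11.75 and 0.12 in KO E11.5. KO E11.75 was highest for each of these genes, and KO E11.5 was nearer to XY control. In Mesonephric tubules 2, Mycn, Cdh4 and Mylip reached the minimum of UMIs only through KO E11.75. They had to be high there to be counted, so their high levels in that sample are a description only. Of 38 genes measured in all tubule cells on a list of known targets of the cluster, E2f2, Ccnd2 and Mylip were past 2-fold higher in KO E11.75, against 1.61% of all genes, and E2f2 reached the minimum only through that sample. None was higher in KO E11.5, where 0.775% of all genes were. The list medians were 0.44 against 0.15 over all genes in KO E11.75, -0.14 against -0.08 in KO E11.5 and -0.33 against -0.17 in XX control. A seed match is a description of the sequence and does not show that the microRNA acts there.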

How the data were processed

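Single-cell RNA-seq counts were taken as the authors deposited them. Per the labels and the methods of the study, 3′ libraries of methanol-fixed cells were aligned and counted with Cell Ranger 6.1.1 on mm10 with an added Sry exon, doublets were removed with DoubletFinder, runs were merged and integrated in Seurat, and clusters were named by markers. Integration was used for the names, and the deposited counts are raw UMI counts. XY cells were filtered on mitochondrial and beta globin content, UMIs and genes, and XX cells by removing clusters of low quality. The percent of mitochondrial and beta globin UMIs per cell was computed by the authors. These filters, and free RNA in droplets, bear on every level given.

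Here the UMIs of the cells of 1 sample and 1 name were summed and scaled to CPM. Log2 ratios to the XY control used a prior count of 0.5 added to each count, with exact binomial 95% intervals. Shares have exact Clopper-Pearson intervals and CPM levels exact Poisson intervals. A count of 0 was left at 0, and the CPM of 3 UMIs in that sample served as a floor for reading it. Intervals and floors cover counting error only. Named genes were the 5 markers, members of the 18 gene lists that were highest or past 2-fold, the 10 highest and 10 lowest ratios of KO E11.5, and the 5 highest and 5 lowest of the other 2 comparisons, leaving out mitochondrial, ribosomal, globin and sex-label genes and genes whose runs overlapped between samples. Genes outside these rules were chosen after their values were seen, as were the skeletal muscle and posterior Hox lists. The members and all lists were chosen with earlier results of these data known. Some genes that these rules name are not reported here. Of 441 listed symbols, 438 were in the table. Seed matches were sought in annotated mm10 transcripts (GENCODE). Alternatives covered scaling (including TMM in edgeR 4.0.16 on R 4.3.3), the prior count, the filter on low counts, which cells entered, and thinning. Scripts ran in Python 3.11.15 with NumPy 2.4.6, SciPy 1.17.1, pandas 2.3.3 and Matplotlib 3.10.9, and the interval and the ratio were tested on simulated counts.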

Additional observations from a re-analysis of the deposited data

How the results depend on the processing

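No paired analysis was possible because each group held 1 sample. Counts of genes over all tubule cells moved by over 1.5 times under several settings. In KO E11.5, 83 genes higher became 153 with at least 50 UMIs over both samples, 20 with at least 500, 1355 with at least 1, 46 in cells with a UMI of at least 2 of the 5 markers, and 22 in Mesonephric tubules 3 alone, and 170 lower became 299, 43 and 1674 with the 3 minimums, 103 and 77 in Mesonephric tubules 2 and 3 alone and 105 with equal weights for the names. In KO E11.75, 169 higher became 99 with TMM factors, 258, 44 and 1699 with the minimums and 106 in Mesonephric tubules 1, and 115 lower became 179, then 193, 20 and 1367, and 53. In the XX control, 39 higher became 76 with TMM factors, 65, 14 and 1275 with the minimums, 75 in cells of at least 3000 and under 30000 UMIs, 22, 11 and 19 in Mesonephric tubules 1, 2 and 3, and 18 with equal weights, and 300 lower became 176, then 463, 67 and 2614, then 519, then 52 and 64 in Mesonephric tubules 1 and 2, and 146. Lower minimums admit more genes with few UMIs, and single names hold fewer genes past the minimum. The cause of the other moves was not tested.

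The share of tubule cells was 11.9%, 7.90%, 9.95% and 15.1% (XY control, KO E11.5, KO E11.75, XX control) among mesonephric cell types alone, and 8.03% in the XY control and 7.73% in KO E11.75 among cells of at least 3000 UMIs. The share of tubule cells with a UMI thinned to 2000, to 5000 and not thinned was 25.9%, 47.8% and 52.9% for Pax2, 13.8%, 27.6% and 33.6% for Pax8, 11.2%, 21.7% and 24.7% for Lhx1, 26.0%, 43.2% and 43.6% for Cdh16, and 47.2%, 65.6% and 60.7% for Epcam. Thinning left out cells under the chosen depth, whereas the share without thinning used all tubule cells, so these settings rest on different cells. Duct-side shares thinned to 5000 were 46.6% in the XY control and 46.0% in KO E11.75. The difference between genes with and without sites was -0.043, 0.190 and -0.150 (KO E11.5, KO E11.75, XX control) with sites of 7 bases added. By length group, short to long, it was 0.029, 0.046 and 0.026 in KO E11.5, 0.214, 0.122 and 0.068 in KO E11.75, and -0.200, -0.038 and -0.058 in the XX control. With at least 500 UMIs it was -0.029, 0.218 and -0.147, and in Mesonephric tubules 3 -0.038, 0.244 and -0.155. In cells with at least 2 of the 5 markers, Myog, Neb, Itga4 and Cdh15 had ratios of -0.07, -0.25, -0.02 and -0.43 in KO E11.5, opposite to those over all tubule cells. Among named genes, 555 values over the alternatives kept their direction within the counting interval, 22 moved and these 4 reversed. Depth limits Mesonephric tubules 1 of KO E11.5 most, where 3 UMIs are 7.97 CPM.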

Other observations

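Some genes that respond to Fgf signalling were high in Mesonephric tubules 2 of KO E11.75. Of 12 genes of the Ret and Fgf list measured there, 5 were past 2-fold higher than in the XY control (Gdnf, Etv4, Etv5, Dusp6 and Il17rd) and none lower, where 3.01% of all genes were higher and 1.47% lower, with a list median of 0.68 against 0.13 over all genes. Gdnf, Etv5, Dusp6 and Il17rd reached the minimum of 100 UMIs only through KO E11.75, so the count and the median are a description only. Etv4, a transcription factor induced by Fgf receptors, was at 42.3, 11.4, 101 and 45.0 CPM in XY control, KO E11.5, KO E11.75 and XX control. Dusp6, a phosphatase that limits the same pathway, was at 21.1, 20.5, 64.3 and 40.2 CPM. KO E11.75 was highest for both.

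Some imprinted genes were lower in Mesonephric tubules 2 of KO E11.75, where 5 of 22 measured were past 2-fold lower (H19, Cdkn1c, Dlk1, Zim1 and Plagl1) and none higher, where 1.47% of all genes were lower (77 genes, or 109 with TMM factors), with a median of -0.50 against 0.13 over all genes. H19 and Zim1 reached the minimum only through the XY control. Plagl1, a transcription factor gene expressed from the paternal allele, was at 95.4, 229, 37.9 and 44.3 CPM, highest in KO E11.5.

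The matrix genes Npnt and Col18a1 differed in Mesonephric tubules 3, where the mesenchyme list summed to 321, 262, 528 and 207 CPM, and the part of mesenchymal transcripts in these levels was not tested. Npnt, which encodes the basement membrane protein nephronectin, was at 322, 258, 1060 and 93.2 CPM in the same order of samples, with log2 ratios of 1.72 (1.61 to 1.83) in KO E11.75 and -1.79 (-1.99 to -1.59) in XX control. Col18a1, a basement membrane collagen, was at 525, 554, 1099 and 286 CPM. Both genes were highest in KO E11.75 and lowest in XX control, the order also seen for Lrp2, Dab2 and Hnf4a. In Mesonephric tubules 1, Tfcp2l1, a transcription factor of ducts, was at 178, 380, 257 and 129 CPM, highest in KO E11.5.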
